A study of Homo sapiens with 12 samples.

Results

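The numbered ZNF genes are human zinc finger genes whose symbols hold ZNF and a number, with or without 1 closing letter. They were chosen by symbol and by summed counts of at least 100 over all libraries, which kept 200 of the 534 numbered ZNF genes in the table and of its 28278 genes in all. The counts that set this threshold are a description of the set and support nothing below. The rule used no genotype comparison, but the set was chosen with earlier results of these data known. Each was read in OCI-Ly7, a diffuse large B-cell lymphoma line that the labels trace to a pleural effusion. The lines were a double mutant labelled with both kmt2d -/- and EZH2 Y646N, a line with EZH2 Y646N alone, a line labelled kmt2d -/- alone, and the wild-type line, all untreated. They are called the double mutant, the EZH2 mutant, the KMT2D mutant and wild type. EZH2 is the catalytic subunit of Polycomb repressive complex 2, which methylates lysine 27 of histone H3, and the Y646N change raises trimethylation there. KMT2D methylates lysine 4 of histone H3, mostly at enhancers. The labels do not give how the lines were made, which part of kmt2d was changed or whether each is 1 clone. Each genotype is read in 1 line, so its effect cannot be told apart from other differences between the lines. KMT2D transcripts stood at 65.6, 39.3 and 33.7 CPM in double mutant libraries, 19.5 and 41.2 in EZH2 mutant, 41.1, 40.9 and 34.5 in KMT2D mutant and 27.2, 44.2 and 29.1 in wild-type libraries. Their level was not lower in the lines labelled kmt2d -/-, at log2 0.46 (SE 0.27) in the double mutant and 0.19 (SE 0.27) in the KMT2D mutant against wild type (edgeR adjusted p = 0.235 and 0.739). EZH2 transcripts were higher in the double mutant than in the KMT2D mutant, at log2 0.42 (SE 0.15, edgeR adjusted p = 0.030). Against wild type they were at log2 -0.23 in the EZH2 mutant and 0.17 in the double mutant (edgeR adjusted p = 0.327 and 0.424). Reads at the 3′ end do not show an edit elsewhere in a gene, so these counts check neither the kmt2d -/- nor the Y646N label, and the genotypes below are those of the labels.

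Most ZNF proteins bind DNA through a row of C2H2 zinc fingers, each of which reads a few bases. Many also carry a KRAB domain, which recruits the corepressor TRIM28 and with it the methyltransferase SETDB1 and HP1 proteins, and these silence transposable elements and other targets in chromatin marked by lysine 9 methylation of histone H3. The genes grew by tandem duplication, most of all on chromosome 19, so neighbours are often paralogs. ZNF proteins without a KRAB domain have mixed roles, from transcription factors to factors of the ribosome and the mitotic spindle.

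RNA was counted from the 3′ ends of transcripts by MARS-seq in 11 libraries, 3 each of double mutant, KMT2D mutant and wild type and 2 of the EZH2 mutant, whose replicate 3 was not analysed here. Total counts ran from 1118710 to 3107871, and EZH2 mutant replicate 1 was the shallowest library, where 6 of the 200 genes were at 0. Levels are given as normalised CPM, which are counts scaled to library size with TMM factors. Before these factors a count of 3 equals 0.965 to 2.68 CPM, depending on depth. In the shallowest library, EZH2 mutant replicate 1, its factor of 0.875 raises that level further. A gene was called changed where edgeR's quasi-likelihood test gave a Benjamini-Hochberg adjusted p under 0.05 over all 8813 genes tested, and all 200 ZNF genes were among them. The labels do not say that replicates were separate cultures, and p-values then speak of the spread among these libraries, which may be technical. Summed B cell markers were at 7850 to 8090 CPM in the double mutant and 8964 to 12206 in the EZH2 mutant. They were at 5839 to 6869 CPM in the KMT2D mutant and 6464 to 9113 in wild type. In the means of the 4 lines CD79A was at 2093 to 5527 CPM and EBF1 at 1.49 to 4.59. By these means MS4A1, CD22, BCL6 and MME were lower in both lines with mutant EZH2 than in the other lines, and CD79A was higher. Summed markers of T and NK cells were at 0 to 1.51 CPM in the double mutant, 2.05 to 2.48 in the EZH2 mutant, 6.40 to 10.7 in the KMT2D mutant and 2.26 to 4.22 in wild type. The plasma cell sum was at 584 to 658 CPM in the double mutant, 544 to 620.0 in the EZH2 mutant, 811 to 826 in the KMT2D mutant and 689 to 879 in wild type, so that both lines with mutant EZH2 lay below the other lines. Mesothelial markers summed to 0 to 2.30 CPM, the highest libraries being KMT2D mutant. The myeloid sum was at 4.53 to 6.42 CPM in the double mutant, 13.9 to 14.3 in the EZH2 mutant, 10.7 to 15.3 in the KMT2D mutant and 19.2 to 32.0 in wild type, with 6 to 8 of its 10 genes at 0 in each library. The part of these cell type markers in the results was not tested. In bulk samples fewer cells of a type and less RNA per cell cannot be told apart.

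The promoters of 5 ZNF genes on which the results turn are shown first, as RefSeq gives them on GRCh38.p14. Each runs from 250 bases before to 50 bases after the annotated start, and capitals mark CG dinucleotides, the sites of DNA methylation. ZNF331 and ZNF146 lie on the same arm of chromosome 19 and moved in opposite directions in the KMT2D mutant. ZNF593 and ZNF275 were higher and lower in both lines with mutant EZH2, and ZNF141 was low in the double mutant. For ZNF331 and for ZNF146 the whole window lies inside the gene as GENCODE 29 places it, so each window holds 1 of the possible starts.
ZNF331 promoter (chr19:53520764-53521063, plus strand): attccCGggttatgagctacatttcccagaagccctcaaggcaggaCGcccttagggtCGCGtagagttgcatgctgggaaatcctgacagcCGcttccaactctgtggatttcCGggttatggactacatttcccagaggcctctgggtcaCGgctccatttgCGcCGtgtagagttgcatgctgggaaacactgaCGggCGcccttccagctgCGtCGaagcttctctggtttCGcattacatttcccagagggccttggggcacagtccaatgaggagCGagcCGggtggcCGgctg
ZNF146 promoter (chr19:36214856-36215155, plus strand): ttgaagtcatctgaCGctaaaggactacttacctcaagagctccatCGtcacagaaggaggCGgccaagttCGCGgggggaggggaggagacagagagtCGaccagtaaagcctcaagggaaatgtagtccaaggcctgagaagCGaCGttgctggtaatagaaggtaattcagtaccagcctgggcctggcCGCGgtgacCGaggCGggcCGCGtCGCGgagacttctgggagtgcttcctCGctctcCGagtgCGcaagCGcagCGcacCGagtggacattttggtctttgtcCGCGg
ZNF593 promoter (chr1:26169658-26169957, plus strand): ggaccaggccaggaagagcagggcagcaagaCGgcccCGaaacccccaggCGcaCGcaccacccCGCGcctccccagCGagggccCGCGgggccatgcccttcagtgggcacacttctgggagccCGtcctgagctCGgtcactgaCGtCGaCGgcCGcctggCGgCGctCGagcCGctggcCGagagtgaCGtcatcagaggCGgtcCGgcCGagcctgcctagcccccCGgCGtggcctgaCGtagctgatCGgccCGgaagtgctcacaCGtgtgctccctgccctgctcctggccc
ZNF275 promoter (chrX:153333903-153334202, plus strand): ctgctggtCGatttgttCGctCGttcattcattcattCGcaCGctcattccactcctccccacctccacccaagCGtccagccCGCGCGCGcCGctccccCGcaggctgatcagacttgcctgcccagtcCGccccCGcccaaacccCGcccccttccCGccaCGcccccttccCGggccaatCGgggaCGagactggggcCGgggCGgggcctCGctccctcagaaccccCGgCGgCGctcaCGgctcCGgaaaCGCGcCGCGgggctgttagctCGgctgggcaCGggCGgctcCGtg
ZNF141 promoter (chr4:337564-337863, plus strand): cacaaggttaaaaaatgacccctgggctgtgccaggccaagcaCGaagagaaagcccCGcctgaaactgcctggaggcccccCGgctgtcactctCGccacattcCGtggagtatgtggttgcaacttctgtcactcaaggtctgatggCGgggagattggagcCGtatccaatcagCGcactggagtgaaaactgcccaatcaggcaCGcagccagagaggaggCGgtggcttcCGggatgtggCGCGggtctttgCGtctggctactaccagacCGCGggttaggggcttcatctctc
These windows held 17 CG dinucleotides at ZNF331, 24 at ZNF146, 30 at ZNF593, 36 at ZNF275 and 16 at ZNF141. The median over the 173 ZNF genes matched to a promoter by symbol was 23, against 27 over the 7007 matched tested genes and 14 over all 27305 promoters. The letters CCGGAAG, a core read by ETS factors, were found on either strand in 41.0% of the ZNF promoters, against 21.8% of the tested genes' and 10.7% of all promoters. Of the 5 shown, ZNF593 and ZNF141 held it. CCAAT, the core of the NF-Y site, was found on either strand in 50.3% of them and in 66.2% of the 71 promoters of genes with a KRAB box, against 38.4% of the tested genes' and 35.7% of all promoters. ZNF331, ZNF275 and ZNF141 held CCAAT. Neither motif contains the other, and a match describes the sequence and is not a bound site. TATAAA, the TATA box, stood in 2.89% of the ZNF promoters and in 4.84% of those of the tested genes. The letters ACTACAA, part of the ZNF143 site, stood on either strand in 5.20% of the ZNF promoters and 4.28% of those of the tested genes.

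The 200 genes were spread over 20 chromosomes. Chromosome 19 held 87 of them, 56 on its long arm (19q) and 31 on its short arm (19p), and chromosomes 16 and 7 followed with 18 and 17. By GENCODE 29, 197 were protein coding and 3 were transcribed pseudogenes (ZNF137P, ZNF252P and ZNF767P). A search of the translated coding sequences for a KRAB box pattern found it in 81 and not in 116, and since divergent boxes escape such a pattern, the second class still holds some KRAB genes. The genes with the pattern had a median of 12 zinc finger matches, against 7 without it, and 54 of the 81 lay on chromosome 19.

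As a set these genes gave few reads. Their mean level over the libraries ran from 3.97 to 182 CPM with a median of 15.1, against 28.9 over all tested genes. The median was 9.87 CPM for genes with the KRAB pattern and 21.0 for those without. Of the 200 genes, 95 stood in the lowest of 3 equal bins of tested genes by level and 19 in the highest. The last 500 bases of their transcripts, where the reads fall, had a median GC content of 42.7%, with 38.6% for KRAB genes and 46.5% for the others, against 44.8% over tested genes. Summed counts ran from 102 to 4102 with a median of 367. Just inside the threshold were ZNF85 with 102 counts, ZNF121 with 105 and ZNF776 with 106, and just outside it were ZNF786 with 99, ZNF717 with 97 and ZNF641 with 93. In 10 genes more than 20% of the 50-base words of the 3′ end also occur in another gene, so their counts are uncertain. ZNF320 and ZNF468 are the clearest case, sharing 100% and 98.7% of theirs with each other. In 17 genes an exon of another gene lies over the 3′ end on the opposite strand, and the strand used in counting is not given in the sources used here.

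None of the 10 most abundant ZNF genes carried the KRAB pattern. ZNF207 (BuGZ), which stabilises the checkpoint protein BUB3 at kinetochores, averaged 178 ± 9.12 CPM in the double mutant, 220.5 ± 14.1 in the EZH2 mutant, 175 ± 11.4 in the KMT2D mutant and 169 ± 6.64 in wild type (SD, n = 3, 2, 3 and 3). ZNF598, the ubiquitin ligase that senses collided ribosomes, averaged 135 ± 11.7 CPM in the double mutant, 161 ± 11.7 in the EZH2 mutant, 101 ± 3.88 in the KMT2D mutant and 109 ± 11.3 in wild type. In EZH2 mutant against wild type ZNF207 was at log2 0.38, a call lost in 10 alternatives, among them leaving out any wild-type or EZH2 mutant library (log2 0.33 to 0.42). ZNF598 was at log2 0.56, a call lost without EZH2 mutant replicate 1 (log2 0.49) and with trends of GC content and abundance removed (log2 0.25). ZNF384, a transcription factor known from fusions in acute B cell leukaemia, stood at 90.8, 80.8 and 81.4 CPM in the double mutant libraries, 100.4 and 92.8 in EZH2 mutant, 83.8, 84.6 and 93.4 in KMT2D mutant and 110.3, 112 and 95.5 in wild-type libraries, and passed the test in none of the 5 comparisons. The others were ZNF593, ZNF581, ZNF511, ZNF428, ZNF395, ZNF296 and ZNF672. Summed over all 200, ZNF transcripts made 5519 ± 128 CPM in the double mutant, 5567 ± 293 in the EZH2 mutant, 4652 ± 122 in the KMT2D mutant and 5316 ± 164 in wild type (SD, n = 3, 2, 3 and 3). The KMT2D mutant libraries, at 4516 to 4753 CPM, lay below every library of the other lines, the lowest of which had 5147. The sum over KRAB genes was 1217 ± 4.22 CPM in the double mutant, 1214 ± 45.7 in the EZH2 mutant, 1217 ± 52.5 in the KMT2D mutant and 1278 ± 90.1 in wild type, with overlapping ranges.

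**Figure D1:**
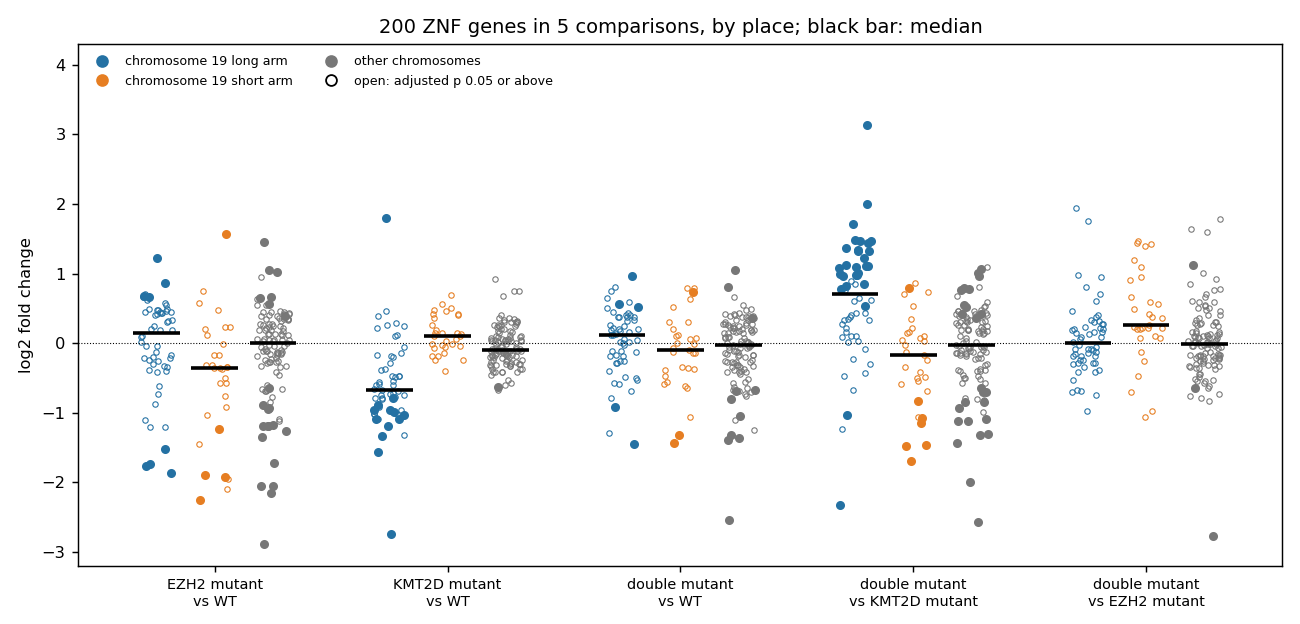
Each point is 1 of the 200 ZNF genes, the y axis is its log2 fold change, filled points have an adjusted p under 0.05 and black bars are medians for 19q, 19p and all other chromosomes in each of 5 comparisons. Genes of 19q sit low in KMT2D mutant against wild type (median -0.68) and high in double mutant against KMT2D mutant (median 0.71), while the lowest median of genes on other chromosomes is -0.09.

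Setting the EZH2 mutant beside wild type shows which ZNF genes differ where the gain-of-function enzyme is present. Of the 200 genes, 12 were higher and 23 lower, so that 17.5% were called, and 32.3% of all tested genes were called (17.1% higher and 15.1% lower). The median log2 fold change was -0.04, as over all tested genes. In the lowest bin by level 14.7% of ZNF genes were called against 20.7% of the other genes, in the middle bin 17.4% against 30.8%, and in the highest bin 31.6% against 46.0%. Of 81 KRAB genes 4 were higher and 10 lower (median -0.11), and of 116 without the pattern 8 and 13 (median -0.04). With trends of GC content and abundance removed, the split of ZNF genes was 16 higher and 12 lower and the medians were 0.25 for KRAB genes and -0.0034 for the others. With upper-quartile scaling, which moved the median of all tested genes to -0.20, it was 4 higher and 27 lower. The count of higher genes fell to 5 without wild type replicate 3, to 5 without EZH2 mutant replicate 1 and to 6 without its replicate 2, and that of lower genes to 11 without EZH2 mutant replicate 1.

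ZNF593 was the ZNF gene with the smallest adjusted p among those that rose. It is a short protein related to yeast Bud20, which acts in export of the large ribosomal subunit, and lies on chromosome 1 from 26169871 to 26170873, plus strand of GRCh38. It had 327 and 270.1 CPM in EZH2 mutant libraries, against 108, 101 and 117 in wild-type libraries. The log2 fold change was 1.45 (SE 0.16), with edgeR adjusted p = 2.52e-06. An annotated gene lies antisense over its 3′ end. ZNF426, a KRAB gene of 19p, had 24.6 and 16.9 CPM in EZH2 mutant libraries, against 7.36, 8.16 and 4.6 in wild-type libraries, a log2 fold change of 1.57 (SE 0.34). Both calls held in every alternative run. ZNF276, at log2 1.06, lost its call without EZH2 mutant replicate 2 (log2 0.68), and its 3′ end lies opposite FANCA, so reads of the pair cannot be told apart without strand. ZNF746, also known as PARIS, a repressor of the PGC-1 alpha gene, stood at log2 0.67, a call lost in 5 alternatives. Among them were leaving out wild type replicate 3 (log2 0.64), EZH2 mutant replicate 1 (log2 0.65) or EZH2 mutant replicate 2 (log2 0.63).

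ZNF275 had the smallest adjusted p among the genes that fell. It lies on chromosome X from 153334147 to 153360110, plus strand, and its libraries had 11.3 and 10.9 CPM in the EZH2 mutant, against 44.1, 42.2 and 51.4 in wild type. Both EZH2 mutant libraries lay below every wild-type one, and the log2 fold change was -2.05 (SE 0.25), with edgeR adjusted p = 1.19e-05. ZNF226, of a cluster on 19q, had 4.1 and 7.45 CPM in EZH2 mutant libraries, against 18.7, 24.5 and 24.9 in wild-type libraries (log2 -1.87 (SE 0.36)). ZNF219, a partner of SOX9 in cartilage, had 7.17 and 6.95 CPM in EZH2 mutant libraries, against 25.5, 22.8 and 22.2 in wild-type libraries (log2 -1.73 (SE 0.33)), and its 3′ end lies opposite that of ARHGEF40. Neither gene's libraries overlapped between the lines. Absence of overlap was part of the ranking by which genes were named, so it adds no support to these calls. ZNF385B, which is known from germinal centre B cells, where it acts in apoptosis, had 12.3 and 27.3 CPM in the EZH2 mutant, against 37.9, 51.7 and 63.6 in wild type (log2 -1.26 (SE 0.29)). ZNF395, a transcription factor known from the response to hypoxia, had 59.4 and 80.9 CPM in EZH2 mutant libraries, against 182, 162 and 143 in wild-type libraries (log2 -1.18 (SE 0.17)). ZNF862, derived in part from a transposase, had 3 counts in EZH2 mutant libraries, against 56 in wild-type libraries, a ratio of 0.114 with a 95% counting interval of 0.0228 to 0.350. The calls of these 6 genes held in every alternative, but for ZNF385B the size moved to log2 -2.13 without EZH2 mutant replicate 2. All 3 counts of ZNF862 came from that replicate, without which its log2 value of -7.01 is fitted against 0 counts and is no bound. By place, the 31 genes of 19p had a median of -0.35 with 1 higher and 4 lower, against 0.26 with 108 higher and 21 lower over the 351 other tested genes of that arm. The ZNF median of 19p was -0.18 without EZH2 mutant replicate 1 and -0.81 without replicate 2, and with trends of GC content and abundance removed the medians were -0.01 and 0.06. The 56 genes of 19q had 4 higher, 4 lower and a median of 0.14, against 67 higher, 47 lower and a median of 0.08 over the 320 other genes of that arm. The ZNF median of 19q was 0.02 without EZH2 mutant replicate 1 and -0.02 without replicate 2.

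EZH2 Y646N was also read in cells labelled kmt2d -/-, as double mutant against KMT2D mutant, a comparison that shares no library with the one above. There 38 ZNF genes were higher and 22 lower, 30.0% called against 41.9% of all tested genes (21.2% higher and 20.8% lower), and the median was 0.14, against -0.02 over all tested genes. Off 19q, 12 of 144 were higher and 20 lower, with a median of -0.04. Without KMT2D mutant replicate 3 the counts were 25 higher and 13 lower, without double mutant replicate 1 13 were lower, with upper-quartile scaling 27 were higher and 32 lower, and with trends of GC content and abundance removed 48 and 14. Over the 200 genes, log2 fold changes for EZH2 Y646N in the 2 backgrounds had Pearson r = 0.51 and Spearman rho = 0.57, as a description across genes that share libraries and are not independent replicates. Over the 144 genes off 19q r was 0.61, and over all tested genes 0.65. The 20 genes called in both make 57.1% of those called in EZH2 mutant against wild type and 33.3% of those called in double mutant against KMT2D mutant. Over all tested genes 1943 were called in both, 68.3% and 52.6%, so the overlap among ZNF genes was not above that of genes in general. Of the ZNF genes called in both, 7 were higher in both (ZNF552, ZNF593, ZNF783, ZNF576, ZNF276, ZNF444 and ZNF598) and 11 lower in both, with ZNF846, ZNF85, ZNF219, ZNF789, ZNF791 and ZNF275 first by size. ZNF552, ZNF576 and ZNF444 lie on 19q. In double mutant against KMT2D mutant 26 of 56 ZNF genes of that arm were higher, as were 198 of its 320 other tested genes. Both calls held in every alternative for 4 of the 20, ZNF593, ZNF219, ZNF275 and ZNF385B. In EZH2 mutant against wild type the call of ZNF791 was lost in 12 alternatives, of ZNF552 in 11, of ZNF783 in 8 and of ZNF576 and ZNF789 in 7 each. In double mutant against KMT2D mutant it was lost for ZNF791 in 8 and for ZNF276 in 7.

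ZNF593 had 213, 197 and 162 CPM in double mutant libraries, against 81.9, 106 and 87.7 in KMT2D mutant libraries (log2 1.06 (SE 0.15)). ZNF275 had 18.3, 24.2 and 25 CPM in the double mutant, against 43.3, 48.3 and 54.4 in the KMT2D mutant (log2 -1.12 (SE 0.19)). ZNF219 had 10.4, 11.3 and 6.39 CPM in the double mutant, against 21.6, 32.9 and 23 in the KMT2D mutant (log2 -1.43 (SE 0.26)). All 3 genes changed in the direction seen in EZH2 mutant against wild type, and these calls held in every alternative. ZNF385B fell as well, with 39.5, 25.7 and 30.8 CPM in double mutant libraries, against 69.1, 58.4 and 57.1 in KMT2D mutant libraries (log2 -0.93 (SE 0.23)). ZNF385A, its paralog, had 0.987, 3.78 and 1.74 CPM in the double mutant, against 6.4, 7.38 and 10.7 in the KMT2D mutant (log2 -2.0 (SE 0.49)), and did not pass in EZH2 mutant against wild type (log2 -0.42). Its double mutant libraries held few counts, and the fall ran from log2 -2.56 to -1.61 with libraries left out 1 at a time. The KRAB genes ZNF846 (log2 -1.69), ZNF726 (log2 -1.47) and ZNF789 (log2 -1.33) fell too, and these calls held in every alternative. ZNF85, of the KRAB cluster on 19p, was at log2 -1.47, a call lost in 4 alternatives. Among them were leaving out KMT2D mutant replicate 3 (log2 -1.25) or double mutant replicate 1 (log2 -1.33). With trends of GC content and abundance removed ZNF85 was at log2 -0.54. The 2 genes called in opposite directions were ZNF473 and ZNF395. ZNF395 was at log2 0.36 here, a call lost in 13 alternatives, 7 of which leave out 1 library.

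**Figure D2:**
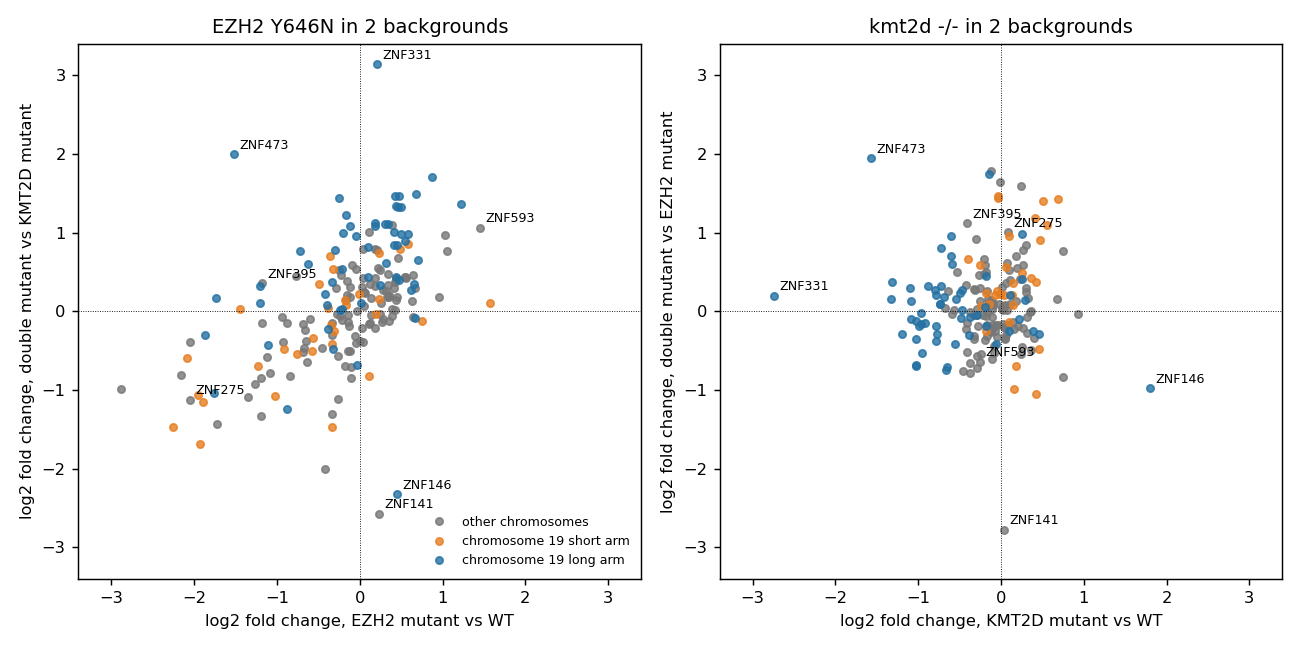
Each point is 1 of the 200 ZNF genes, coloured by place, with the log2 fold change for EZH2 Y646N (left) or kmt2d -/- (right) in cells wild type for the other gene on the x axis and in cells mutant for it on the y axis. On the left the values on the axes are correlated (r = 0.51), and on the right they are not (r = 0.03). Genes of 19q on the left have a median of 0.14 on the x axis and 0.71 on the y axis. ZNF473, ZNF331, ZNF141 and ZNF146 are among the genes far from the left diagonal.

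In KMT2D mutant against wild type most ZNF genes of 19q lay below 0, as did their neighbours. Of all 200 ZNF genes 1 was higher and 13 were lower, 7.0% called against 7.66% of all tested genes (3.18% higher and 4.48% lower), and the median was -0.12, against 0.00 over all tested genes. On 19q 12 of 56 were lower and 1 was higher, with a median of -0.68 (62.5% of wild type), and 47 lay below 0. The 320 other tested genes of the arm had a median of -0.73, with 178 lower and 4 higher. Off 19q 1 of 144 ZNF genes was called, ZNF511, with a median of -0.04. Among the 31 genes of 19p edgeR called 0, with 1 at an unadjusted p under 0.05, and DESeq2 called 0. The difference between the medians of 19q and other ZNF genes was -0.64, and between -0.67 and -0.59 when libraries were left out 1 at a time. With 19q summed, ZNF transcripts made 812, 893 and 874 CPM in KMT2D mutant libraries, against 1402, 1289 and 1292 in wild-type libraries, and the KMT2D mutant mean was 64.8% of the wild-type mean. The double mutant had 1519, 1545 and 1399 CPM and the EZH2 mutant 1648 and 1363, so the KMT2D mutant stood below all other lines. Off 19q the sum was 95.1% of wild type in the KMT2D mutant.

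**Figure D3:**
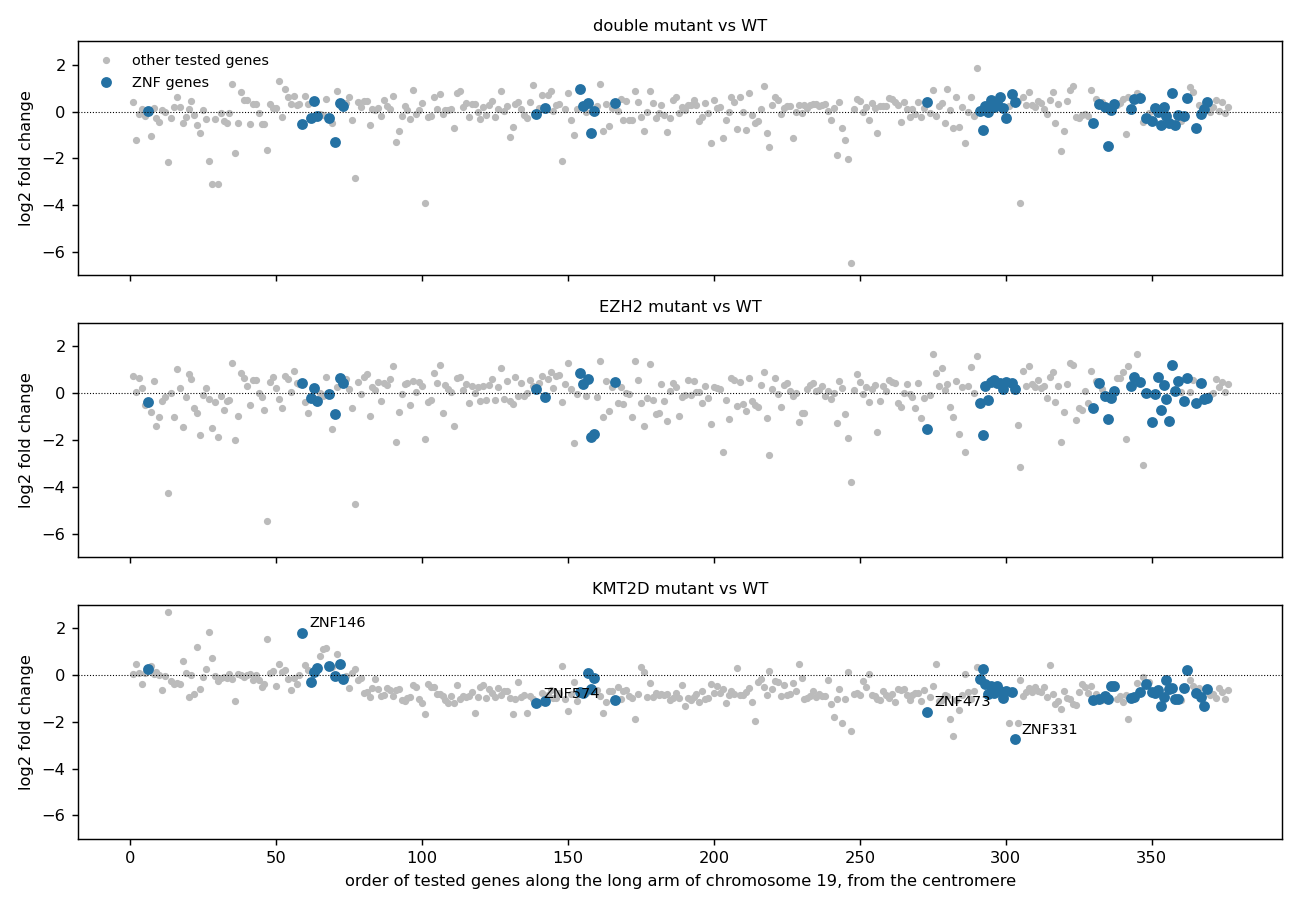
The x axis orders the 376 tested genes of 19q by position from the centromere and the y axes give log2 fold changes against wild type, with the 56 ZNF genes in blue and other genes in grey. In the KMT2D mutant (bottom) ZNF genes from ZNF574 onward lie low with their neighbours, at a median of -0.74, and in the double mutant (top) at 0.13 and the EZH2 mutant (middle) at 0.18 they do not.

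Among the ZNF genes along the arm the change set in between ZNF607 and ZNF574, a split chosen after the values were seen. Earlier results of these data put a boundary nearer the centromere, at ZNF383. From there on 242 of 257 other tested genes and 45 of 49 ZNF genes lay below 0 in KMT2D mutant against wild type. The 9 ZNF genes from ZNF507 to ZNF607 had log2 fold changes of -0.29 to 1.80 in KMT2D mutant against wild type, with a median of 0.25. The 47 from ZNF574 to ZNF446 ran from -2.74 to 0.25 with a median of -0.74, and 44 lay below 0. In double mutant against wild type the same 47 had a median of 0.13, and in EZH2 mutant against wild type 0.18. KRAB genes of 19q (median -0.68) and those without the pattern (median -0.74) lay close together, with 3 of 30 and 9 of 25 called lower.

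ZNF331 had the largest fall. It is an imprinted KRAB gene on chromosome 19 from 53519527 to 53580269, plus strand. Its libraries had 0.609, 0.671 and 1.15 CPM in the KMT2D mutant, against 6.79, 6.12 and 4.6 in wild type (log2 -2.74 (SE 0.50), edgeR adjusted p = 0.00155). Each KMT2D mutant library held no more than 3 counts of this gene, so the sizes of its changes against that line are imprecise. The double mutant, at 9.38, 7.55 and 5.81 CPM, and the EZH2 mutant, at 6.15 and 6.95 CPM, overlapped wild type, and the double mutant was higher than the KMT2D mutant by log2 3.14 (SE 0.50). ZNF574, on chromosome 19 from 42068477 to 42081549, plus strand, had 21.9, 24.8 and 27.6 CPM in KMT2D mutant libraries, against 58.3, 55.1 and 56.7 in wild-type libraries (log2 -1.20 (SE 0.16)). ZNF296, whose mouse counterpart promotes reprogramming to pluripotency, had 45.7, 75.9 and 48.2 CPM in the KMT2D mutant, against 127, 108 and 118 in wild type (log2 -1.09 (SE 0.18)). ZNF787 (log2 -0.99), ZNF444 (log2 -0.96), ZNF524 (log2 -0.88) and ZNF428 (log2 -0.79) fell as well, and these 7 calls on 19q held in every alternative. ZNF530 (log2 -1.33) lost its call without wild type replicate 2 (log2 -1.05), ZNF628 (log2 -1.09) without KMT2D mutant replicate 1 (log2 -0.93), and ZNF579 (log2 -1.03) without KMT2D mutant replicate 1 (log2 -0.95) or 3 (log2 -1.02). ZNF511, on chromosome 10, had 82.9, 91.3 and 92.3 CPM in KMT2D mutant libraries, against 139.8, 133 and 141 in wild-type libraries (log2 -0.64 (SE 0.13)), and this call held in every alternative.

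ZNF146 was the single ZNF gene that rose in the KMT2D mutant. Also called OZF, it consists almost wholly of zinc fingers, is gained in some pancreatic tumours, and lies on chromosome 19 from 36214602 to 36238774, plus strand, in the stretch of 19q before ZNF574. It had 11.6, 10.1 and 8.42 CPM in KMT2D mutant libraries, against 1.7, 2.38 and 4.22 in wild-type libraries (log2 1.80 (SE 0.39), edgeR adjusted p = 0.00559). The call was lost without KMT2D mutant replicate 1, at log2 1.65, which left 0 higher genes, and 2 genes were higher without EZH2 mutant replicate 1 or 2. The double mutant had 2.47, 1.51 and 1.74 CPM and the EZH2 mutant 2.05 and 4.96, and the double mutant was lower than the KMT2D mutant by log2 -2.32 (SE 0.45). Of the summed means of the 4 lines, 55.1% came from the KMT2D mutant, the only such share above 50% among the 200 genes.

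In cells with mutant EZH2, where the kmt2d -/- genotype is read as double mutant against EZH2 mutant, few ZNF genes were called. Of 200 ZNF genes 1 was higher and 2 were lower, 1.5% against 2.29% of all tested genes (0.715% higher and 1.58% lower), with a median of 0.05. On 19q edgeR called 0 of 56, with 4 at an unadjusted p under 0.05, and DESeq2 called 0. The median there was -0.01. Log2 fold changes for kmt2d -/- in the 2 backgrounds had r = 0.03 over the 200 genes and 0.10 over all tested genes, comparisons that share no library. No ZNF gene was called in both by edgeR, with 5 at an unadjusted p under 0.05 in both, and 0 were called in both by DESeq2. With 14 and 3 ZNF genes called and 50 of all 8813 genes called in both (7.41% and 24.8%), an overlap of 0 says little about ZNF genes. ZNF395 was the gene that rose, with 157, 154 and 157 CPM in double mutant libraries, against 59.4 and 80.9 in EZH2 mutant libraries (log2 1.12 (SE 0.17), edgeR adjusted p = 0.000534), and the call held in every alternative. The double mutant's level lay within that of wild type, at 182, 162 and 143 CPM. Without double mutant replicate 1, 4 genes were higher. No gene was lower without EZH2 mutant replicate 1 or 2 or double mutant replicate 2, and 1 was without KMT2D mutant replicate 3 or double mutant replicate 1 or 3.

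ZNF141 was lower in the double mutant than in wild type and the KMT2D mutant. This KRAB gene on chromosome 4 from 337814 to 384864, plus strand had 0.0, 1.51 and 2.32 CPM in double mutant libraries, 10.2 and 7.45 in EZH2 mutant, 5.79, 7.38 and 9.19 in KMT2D mutant and 5.09, 10.2 and 5.75 in wild-type libraries. The double mutant's libraries lay below all others, and the log2 fold change was -2.54 (SE 0.60) against wild type and -2.57 (SE 0.60) against the KMT2D mutant, calls that held in every alternative. A count of 3 equals 1.39, 2.11 and 1.76 CPM in double mutant replicates 1, 2 and 3 before TMM factors, so few counts set these sizes. With libraries left out 1 at a time they ran from -3.46 to -1.84 and from -3.49 to -1.88. Against the EZH2 mutant the log2 fold change was -2.78 (SE 0.68), a call lost in 6 alternatives. Among them were leaving out EZH2 mutant replicate 1 (log2 -2.60) or 2 (log2 -2.99) and double mutant replicate 1 (log2 -2.04) or 2 (log2 -2.92). The interaction for this gene was log2 -2.81 (SE 0.79), with edgeR adjusted p = 0.0596, which does not pass. ZNF593 was lower in the double mutant than in the EZH2 mutant by log2 -0.64 (SE 0.16), a call lost in 7 alternatives. Among them were leaving out KMT2D mutant replicate 3 (log2 -0.64), EZH2 mutant replicate 1 (log2 -0.52) or 2 (log2 -0.73) and double mutant replicate 2 (log2 -0.67) or 3 (log2 -0.53).

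In double mutant against wild type 7 ZNF genes were higher and 12 lower, 9.5% called against 23.7% of all tested genes (12.1% higher and 11.6% lower), and the median was -0.01, as over all tested genes. The count of higher genes was 3 without wild type replicate 3, 4 without double mutant replicate 1 and 3 without double mutant replicate 2, and that of lower genes 6 and 7 without those 2 double mutant libraries. The split was 4 higher and 18 lower with upper-quartile scaling, and 13 and 9 with trends of GC content and abundance removed. ZNF593 had 213, 197 and 162 CPM in double mutant libraries, against 108, 101 and 117 in wild-type libraries (log2 0.81 (SE 0.14)). ZNF275 had 18.3, 24.2 and 25 CPM in the double mutant, against 44.1, 42.2 and 51.4 in wild type (log2 -1.04 (SE 0.19)). ZNF219 had 10.4, 11.3 and 6.39 CPM in the double mutant, against 25.5, 22.8 and 22.2 in wild type (log2 -1.33 (SE 0.27)). These 3 calls, which rest on the same wild-type libraries as those for the EZH2 mutant, held in every alternative. ZNF576, of 19q, rose by log2 0.96, a call lost without wild type replicate 3 (log2 0.80). ZNF784 was at log2 -1.45, a call lost without double mutant replicate 2 (log2 -1.16), and ZNF106, a large RNA-binding protein known from mouse motor neurons, at log2 -1.40, lost without double mutant replicate 1 (log2 -1.26). By KRAB pattern, 1 of 81 was higher and 5 lower (median -0.13), and of those without it 6 of 116 were higher and 7 lower (median 0.02).

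**Figure D4:**
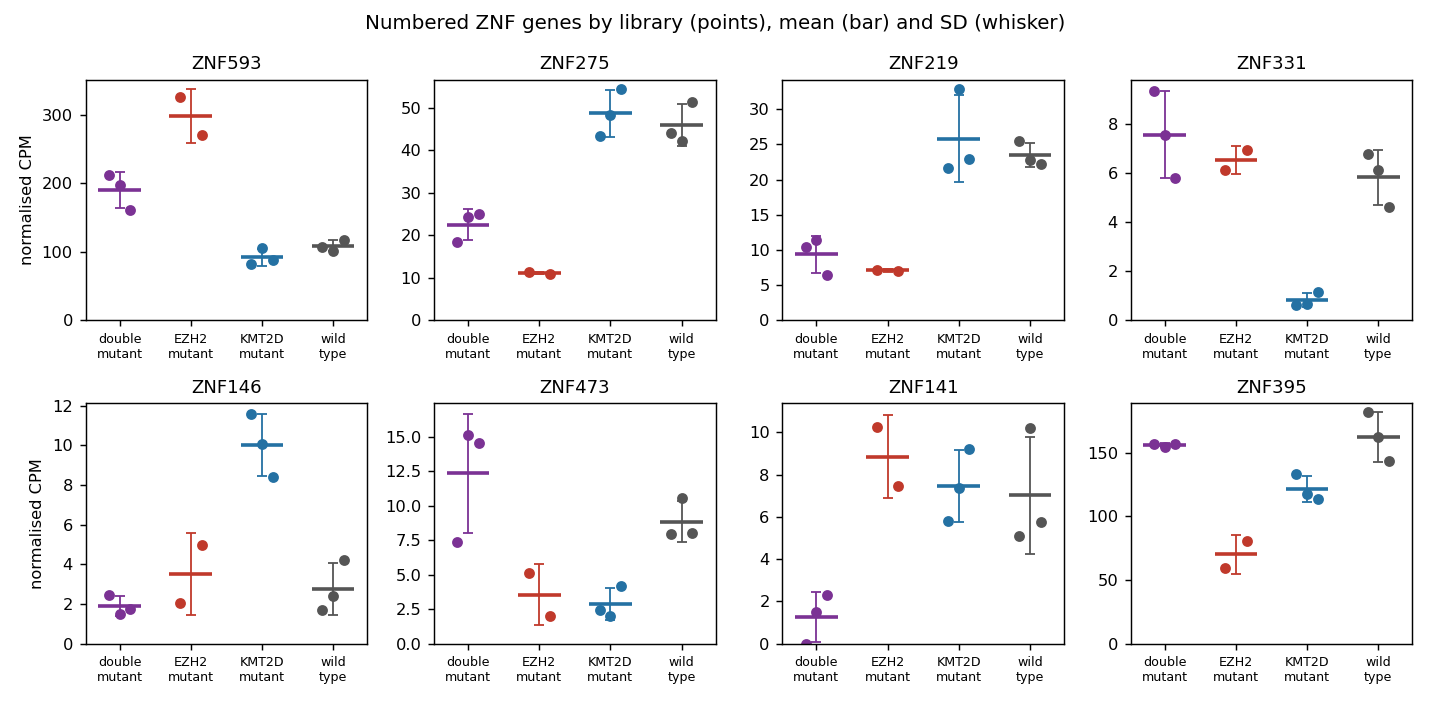
Normalised CPM of 8 ZNF genes in each library (points), with the mean (bar) and SD (whisker) of each line, from the double mutant at left to wild type at right. ZNF593 is high and ZNF275 and ZNF219 low in both lines with mutant EZH2, ZNF331 is low and ZNF146 high in the KMT2D mutant, ZNF473 is low in both single mutants, ZNF141 is low in the double mutant and ZNF395 in the EZH2 mutant.

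ZNF473 (ZFP100), a component of the U7 particle that processes the 3′ ends of histone transcripts, was low in each single mutant and not in the double mutant. It lies on chromosome 19 from 50025714 to 50053414, plus strand, and had 7.4, 15.1 and 14.5 CPM in double mutant libraries, 5.12 and 1.99 in EZH2 mutant, 2.44, 2.01 and 4.21 in KMT2D mutant and 7.92, 10.5 and 8.05 in wild-type libraries. Against wild type the log2 fold change was 0.43 (SE 0.35) in the double mutant, -1.52 (SE 0.53) in the EZH2 mutant and -1.57 (SE 0.41) in the KMT2D mutant. The EZH2 mutant call was lost in 5 alternatives, among them leaving out wild type replicate 2 (log2 -1.36) or EZH2 mutant replicate 2 (log2 -0.86). The KMT2D mutant call was lost without wild type replicate 2 (log2 -1.42) or KMT2D mutant replicate 1 (log2 -1.41) or 2 (log2 -1.44). The double mutant was higher than the KMT2D mutant by log2 2.00 (SE 0.41), which held in every alternative. The interaction of the mutations, the EZH2 Y646N effect in kmt2d -/- cells minus that in cells wild type for kmt2d, was called for 8 of the 200 ZNF genes, 7 positive and 1 negative, 4.0% against 3.02% of all tested genes (1.5% positive and 1.52% negative). Of the 8, 6 lay on 19q, where 71 of the 320 other genes were also positive and 2 negative. The count was 1 without EZH2 mutant replicate 2, 13 without EZH2 mutant replicate 1, 3 and 4 without KMT2D mutant replicates 1 and 3, and 5 without wild type replicate 1 or double mutant replicate 2 or 3.

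Genes that KRAB ZNF proteins work through were read beside them. A list of 44 genes of this pathway and related heterochromatin factors had 33 tested. In EZH2 mutant against wild type 4 were higher and 6 lower with a median of -0.28, and 30.3% were called against 32.3% of all tested genes. The count of 10 was 6 without wild type replicate 3 and 5 without EZH2 mutant replicate 1. CHD3, a remodeller of the NuRD complex, rose by log2 1.05, the histone chaperone gene DAXX by 0.83 and EHMT2, which methylates lysine 9 of histone H3, by 0.74, and these calls held in every alternative. TASOR, a subunit of the HUSH silencing complex, was at log2 -1.42, a call lost without EZH2 mutant replicate 2 (log2 -1.40). TRIM28, the corepressor itself, lies on 19q. It averaged 1060 ± 96.8 CPM in the double mutant, 1160 ± 238 in the EZH2 mutant, 386 ± 43.8 in the KMT2D mutant and 752 ± 141 in wild type (SD, n = 3, 2, 3 and 3). It fell in the KMT2D mutant by 0.96 on the log2 scale, and was higher in the double mutant than in the KMT2D mutant by log2 1.46, both held in every alternative. Its call at log2 0.62 in the EZH2 mutant was lost in 2 alternatives, among them leaving out EZH2 mutant replicate 1 (log2 0.41). That at 0.50 in the double mutant was lost without wild type replicate 2 (log2 0.36) or 3 (log2 0.48) or double mutant replicate 2 (log2 0.43). SETDB1, which TRIM28 recruits, was at log2 0.22 in the EZH2 mutant and 0.09 in the KMT2D mutant and passed in neither. In KMT2D mutant against wild type 2 were lower and 0 higher (6.06% against 7.66% of all tested genes), TRIM28 and the DNA methyltransferase gene DNMT1, the second at log2 -0.45, a call lost without KMT2D mutant replicate 1 (log2 -0.45) or 3 (log2 -0.46). In double mutant against wild type 5 were higher and 4 lower (27.3% against 23.7% of all), a count of 9 that was 2 without wild type replicate 3 and 5 without double mutant replicate 2. CHD3 (log2 0.92) and DNMT1 (log2 -0.60) held in every alternative there. In double mutant against KMT2D mutant 8 were higher and 8 lower (48.5% against 41.9% of all). In double mutant against EZH2 mutant, where 2.29% of all tested genes were called, edgeR called 0 of the 33, with 3 at an unadjusted p under 0.05, and DESeq2 called 0. These shares lie near those of all tested genes.

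Related C2H2 families, taken by symbol, were small. In KMT2D mutant against wild type 1 of 9 numbered ZFP genes was higher and 1 lower, and 1 and 2 of 24 numbered ZBTB genes, where 7.66% of all tested genes were called. In EZH2 mutant against wild type the calls were 1 higher and 2 lower of 9 ZFP genes, 2 higher of 13 ZSCAN and ZKSCAN genes and 4 lower of 24 ZBTB genes (16.7%), where 32.3% of all tested genes were called.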

How the data were processed

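RNA of 11 OCI-Ly7 libraries was measured by MARS-seq, a 3′-end method with barcoded cDNA. The authors deposited whole-number counts per gene, which the table calls corrected without saying for what. Trim Galore 0.6.0, cutadapt 1.15, FastQC, STAR 2.7.0f and DESeq2 are named in the submitters' processing notes, without roles. The counter, genome build, annotation and strand setting are not given in the sources used here.

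Genes were kept by edgeR's filterByExpr with a minimum count of 10, scaled by TMM and fitted with edgeR 4.0.16 (R 4.3.3) quasi-likelihood over all 11 libraries, 1 mean per line, with Benjamini-Hochberg adjustment over the 8813 genes. The alternatives were RLE and upper-quartile scaling, no filter, DESeq2 1.42.0, a fit of only the groups compared, a replicate block, removal of per-library trends with 3′ GC content and abundance, and leaving out each library in turn. The procedure was also run on simulated counts with 1 spread for every gene and changes set in the EZH2 mutant alone. That run does not show how well low counts or the other comparisons are called. Gene places, coding sequences and 3′ ends came from GENCODE 29, matched by symbol, and KRAB and zinc finger patterns were searched in its translated coding sequences. Promoters came from RefSeq on GRCh38.p14.

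Genes were named by rule. For each pair of lines these were the 8 largest called changes each way without overlap of libraries, for the interaction the 5 smallest adjusted p-values, and beside them the 10 highest means, the 3 genes on each side of the count threshold, genes called in both backgrounds, and up to 6 called pathway genes per comparison. The remaining interaction genes, SETDB1 and the split at ZNF574 were chosen after their values were seen. The members and lists were chosen with earlier results of these data known. Totals of 1118710 to 3107871 counts limit precision at low levels, and the counting interval given covers counting error only.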

Additional observations from a re-analysis of the deposited data

Results flagged for a closer look

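The EZH2 Y646N effect in kmt2d -/- cells minus that in cells wild type for kmt2d passed edgeR's interaction test for 8 ZNF genes, and this difference between backgrounds is what brought them here. It was log2 1.53 (SE 0.22) for ZNF395, with edgeR adjusted p = 0.000314, the single one of the 8 that held in every alternative. ZNF473 stood at log2 3.52 (SE 0.66), a call lost without EZH2 mutant replicate 2 (log2 2.84). ZNF331 stood at log2 2.94 (SE 0.67), lost with DESeq2 (log2 3.03) and without KMT2D mutant replicate 1 (log2 2.7) or EZH2 mutant replicate 2 (log2 3.10). ZNF511 stood at log2 0.89 (SE 0.20), lost without KMT2D mutant replicate 1 (log2 0.84) or EZH2 mutant replicate 2 (log2 0.82). ZNF524 stood at log2 1.21 (SE 0.28), lost without KMT2D mutant replicate 3 (log2 1.11) or EZH2 mutant replicate 2 (log2 1.25). The calls of ZNF296 at log2 1.00 (SE 0.26), ZNF574 at log2 0.91 (SE 0.24) and ZNF146 at log2 -2.77 (SE 0.75) were lost in 8, 11 and 11 alternatives. Of the 8 genes, ZNF331, ZNF473, ZNF524, ZNF296, ZNF574 and ZNF146 lie on 19q, where 71 of 320 other tested genes also passed in the positive direction. With 1 line per genotype, an interaction of the mutations and a feature of 1 line cannot be told apart.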

How the results depend on the processing

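Of 143 results for single genes, 58 kept their direction and their side of the threshold under every alternative, and none reversed. The 382 losses of a call were spread over all alternatives. Upper-quartile scaling, which moved the median of all tested genes to -0.20 in EZH2 mutant against wild type, gave 4 higher ZNF genes and a median of -0.20 there, 2 higher in KMT2D mutant against wild type, 4 higher and a median of -0.12 in double mutant against wild type, a median of -0.0034 in double mutant against KMT2D mutant, and 2 higher and a median of 0.10 in double mutant against EZH2 mutant. Without the filter the median was -0.085 in EZH2 mutant and -0.061 in double mutant against wild type, 2 were higher and 20 lower in KMT2D mutant against wild type, 2 were higher in double mutant against EZH2 mutant, and 15 passed the interaction. DESeq2 called 6 higher and 15 lower in EZH2 mutant against wild type, 4 higher in double mutant against wild type and 5 in the interaction. A fit of only the groups compared gave 6 higher in EZH2 mutant and 2 higher in KMT2D mutant against wild type, and 0 lower with a median of 0.090 in double mutant against EZH2 mutant. With trends of GC content and abundance removed, EZH2 mutant against wild type had 12 lower, a median of 0.10 and a KRAB minus other difference of 0.26, KMT2D mutant against wild type had 2 higher, and double mutant against wild type had 13 higher and a median of 0.11. Double mutant against KMT2D mutant then had 14 lower and a median of 0.24, double mutant against EZH2 mutant 2 higher and a median of 0.014, and 13 passed the interaction. The cause of these changes was not tested.

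Correlations between libraries of different lines, as deviations from line means, ran from -0.29 to 0.38 for same-numbered libraries. For differently numbered libraries they ran from -0.38 to 0.29. Deviations cancel within a line, so these values cannot decide whether the replicate numbers pair the samples. With the replicate block 0 were lower in double mutant against EZH2 mutant and 5 passed the interaction.

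Leaving out 1 library at a time, EZH2 mutant against wild type had 5 to 14 higher, 11 to 25 lower, a median of -0.10 to -0.010, a KRAB minus other difference of -0.15 to -0.0045 and 5 to 12 pathway genes called. KMT2D mutant against wild type had 0 to 2 higher, 9 to 17 lower, a median of -0.16 to -0.10, a 19q minus other difference of -0.67 to -0.59 and 1 to 3 pathway genes. Double mutant against wild type had 3 to 7 higher, 6 to 14 lower, a median of -0.065 to 0.030 and 2 to 9 pathway genes. Double mutant against KMT2D mutant had 25 to 38 higher, 13 to 23 lower, a median of 0.067 to 0.16 and a KRAB minus other difference of -0.20 to -0.04. Double mutant against EZH2 mutant had 1 to 4 higher, 0 to 2 lower, a median of 0.0091 to 0.16 and a 19q minus other difference of -0.094 to 0.076, and 1 to 13 passed the interaction. The EZH2 mutant has 2 libraries, and leaving 1 out assumes that the lone library varies like those of the other lines.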
